A study of Mus musculus with 2 samples.

Results

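Pthlh and Pth1r encode a secreted ligand and the receptor that binds it. They are 2 of the 19070 genes for which the assay had probes, and both were detected. The pair was chosen from measured values of these libraries, because the ligand was higher in the epithelium of the Erbb3 d/d library and the receptor stood out in a part of the stroma. Those 2 patterns are therefore given as descriptions, with no test.

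Single-cell RNA was measured in fixed endometrial tissue of mice on day 3 of pregnancy, with 1 library from an Erbb3 f/f preparation, the control, and 1 from an Erbb3 d/d preparation. Both groups carry the floxed Erbb3 allele. In d/d the gene, which encodes a receptor of the ErbB family, is stated to be deleted in the stroma. The series addressed how stromal Erbb3 shapes the uterine glands. The labels as used here do not name the Cre driver, the age or strain of the mice, the number of mice behind a library, or the meaning of the digits that differ between the library names. Genotype and preparation cannot be told apart, the spread between animals is unknown, and no p-value was computed. In gated stromal cells Erbb3 itself had 8 UMIs in the control and 2 in d/d (7.75 and 9.92 CPM), so these counts do not check the deletion. In epithelial cells, where no deletion is stated, Erbb3 had 203 and 32 UMIs, or 77.7 CPM (67.4 to 89.2) in the control and 40.5 CPM (27.7 to 57.1) in d/d.

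Parathyroid hormone-related protein, the product of Pthlh, is cut from a precursor by proprotein convertases and acts mostly on nearby cells. Its receptor, the product of Pth1r, is a G protein-coupled receptor that also binds parathyroid hormone and signals through Gs and cAMP as well as through Gq. In organs such as the mammary bud the ligand comes from epithelium and the receptor lies on the mesenchyme around it, and in cartilage the pair acts together with Indian hedgehog. Pthlh (ENSMUSG00000048776) is a protein-coding gene on the minus strand of chromosome 6, at 147252101 to 147264183. Pth1r (ENSMUSG00000032492) is a protein-coding gene on the minus strand of chromosome 9, at 110722085 to 110747145. Both positions are from GENCODE M21 on the mouse build GRCm38.

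The cells used were 5503 in the control and 1830 in d/d, with medians of 809 and 764.5 UMIs (unique molecular identifiers, which count captured molecules). A class was assigned to a cell from the UMIs of marker genes, never from Pthlh or Pth1r. Epithelial cells numbered 2549 in the control and 843 in d/d, and stromal cells 1099 and 237. The mesothelial, endothelial, smooth muscle and pericyte, and macrophage and myeloid classes held 27 to 148 cells per library, and 1420 f/f and 606 d/d cells met no gate and are called ungated. Of 4897 gated cells that also lay in a named cluster, 94.9% had the same class by both routes. The clusters were named with the same marker lists, so the 2 routes are not independent. A further 410 gated cells lay in an unnamed cluster. No whole cell barcode was shared between the libraries, while 158 barcodes agreed in their first 16 bases. Levels are CPM, the UMIs of a gene scaled to a common total of the UMIs of its class, with 95% intervals that cover counting error only. Where 2 values are paired without a label, the first is that of f/f, also called the control, and the second that of d/d, and a log2 ratio is d/d over f/f unless said otherwise. Probes differ in efficiency, so levels are compared between libraries and cells for 1 gene, never between genes.

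Pthlh was at low level in control epithelium and was far higher in d/d epithelium. Over all cells it had 44 UMIs in the control and 165 in d/d, although the d/d library held fewer cells. Control epithelial cells held 54.5% of these Pthlh UMIs, beside 47.3% of the UMIs of all genes. In d/d the shares were 64.2% and 46.2%. In epithelial cells there were 24 UMIs in the control, or 9.19 CPM (5.89 to 13.7), and 106 in d/d, or 134 CPM (110 to 162). The intervals did not overlap, and the d/d level was 14.6-fold that of f/f (9.30 to 23.8), at a log2 ratio of 3.87 (3.22 to 4.57). Among 7168 genes with at least 100 UMIs in epithelial cells, 5.11% were higher in d/d by a log2 ratio of 1 or more, and Pthlh held rank 2 from the top. That position is what the choice of the gene used, and nothing is read from it.

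The d/d Pthlh UMIs were spread over many cells and did not come from a few cells with many. At so few UMIs per cell, more expressing cells and a higher level in all cells cannot be told apart. A Pthlh UMI was seen in 20 of 2549 epithelial cells in the control (0.785%) and in 80 of 843 in d/d (9.49%), at median depths of 855 and 809 UMIs. In d/d, 60 of these cells had 1 UMI, 16 had 2, 3 had 3 and 1 had 5. In f/f, 17 had 1 UMI, 2 had 2 and 1 had 3. Thus no single barcode carried the d/d sum. After each cell was thinned to 500 UMIs, 8 of 2545 f/f cells (0.314%) and 43 of 842 d/d cells (5.11%, 3.72 to 6.82) had a UMI. In stromal cells, taken as the background, 1 of 1099 f/f cells (0.091%) and 4 of 237 d/d cells (1.69%) had one, at median depths of 729 and 689. In both libraries the epithelial share thus stood above the stromal one.

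Outside the epithelium Pthlh counts were too few to order the classes. Stromal cells had 1 UMI in the control, or 0.968 CPM, and 7 in d/d, or 34.7 CPM (14.0 to 71.6), at a log2 ratio of 5.16 (2.20 to 10.66). Of the 7 d/d UMIs, 5 lay in 2 cells. The mesothelial, endothelial, smooth muscle and pericyte, and macrophage and myeloid classes together had 0 UMIs in 435 f/f cells, where a limit of 3 counts allows up to 7.85 CPM, and 8 UMIs in 144 d/d cells, or 59.6 CPM (25.7 to 117). Each of these 4 classes had 1 to 3 UMIs in d/d, at or below 3 counts, so no fold is given for any of them. Ungated cells had 19 and 44 UMIs, or 12.7 and 75.1 CPM, at a log2 ratio of 2.56 (1.75 to 3.42). In the control, the intervals of ungated cells (7.67 to 19.9) and of the 4 pooled classes (0 to 9.65) overlapped the epithelial interval.

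Pthlh in d/d stromal cells stood at 25.9% of its d/d epithelial level. Epithelial genes also had UMIs there: Calb1, which encodes a calcium-binding protein, stood at 21.6% of its epithelial level in d/d stromal cells and 8.43% in the control. Of the other epithelial genes compared, Ihh stood at 11.2% there in d/d, S100g at 17.1% and Sox9 at 59.4%, on 1, 1 and 5 stromal UMIs. In d/d mesothelial and endothelial cells Pthlh stood at 59.0% and 45.1%, on 2 UMIs each, and Calb1 at 45.8% and 8.75%, while Ihh, S100g and Sox9 had 0 UMIs. Summed epithelial markers in stromal cells were 600 CPM in the control and 734 in d/d, with 2 and 7 of 28 markers at 0. The d/d epithelial level of Pthlh was 3.86-fold the d/d stromal level (1.81 to 9.83), and in the control the ratio was 9.49 (1.55 to 390). The part of carried-over RNA in the stromal counts was not tested.

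**Figure D1:**
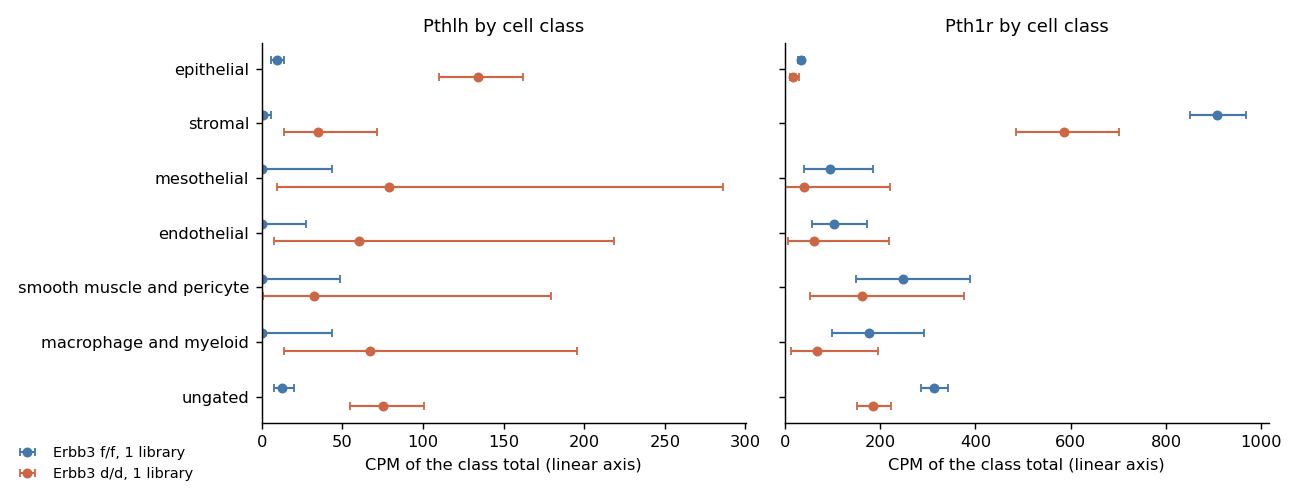
Levels of Pthlh (left) and Pth1r (right) in CPM of the class total, on linear axes, for 7 groups of cells in 1 Erbb3 f/f and 1 Erbb3 d/d library. Points are levels and bars are 95% counting intervals; epithelial Pthlh is at 9.19 CPM in the control and 134 CPM in d/d, and stromal Pth1r at 907 and 586 CPM.

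Epithelial cells were divided by the marker list with most UMIs, and their make-up differed between the libraries. Cells with most UMIs of Lrp2 and Slc5a11 were 51.9% of control and 8.30% of d/d epithelial cells, and glandular cells were 16.8% and 7.12%. Cells of the Muc4 and Ptpn22 subset were 3.88% and 16.1%, those of the Ltf and Clca3b subset 5.37% and 14.6%, and those with no subtype marker 12.5% and 45.2%. Cells with at least 2 UMIs of cycling genes were 18.8% of control and 54.4% of d/d epithelial cells. Pthlh was therefore read within each subset.

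Pthlh was higher in d/d in every subset, with f/f counts of 1 to 10 UMIs. In the Lrp2 and Slc5a11 subset it had 9 and 6 UMIs, or 6.27 and 92.9 CPM, at a log2 ratio of 3.89 (2.12 to 5.54). When clusters replaced the gates, the same subset gave 1.76 with an interval from -3.76 to 4.80, resting on 1 d/d UMI. In glandular cells it had 10 and 7 UMIs, or 24.2 and 129 CPM, at a log2 ratio of 2.41 (0.78 to 3.95), where f/f had its highest subset level. By clusters the glandular ratio was 1.63, with an interval from -1.67 to 4.03 that included 0, on 2 d/d UMIs.

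The other subsets held most of the d/d counts. The Muc4 and Ptpn22 subset had 1 and 24 UMIs, or 10.5 and 176 CPM, and its log2 ratio was 4.07 (1.45 to 9.43). The Ltf and Clca3b subset had 1 and 9 UMIs, or 6.35 and 75.8 CPM, and its log2 ratio was 3.58 (0.72 to 9.03). Cells with no subtype marker had 1 and 51 UMIs, or 3.88 and 155 CPM, and their log2 ratio was 5.32 (2.78 to 10.65). Cells tied between lists had 2 and 9 UMIs, or 7.88 and 103 CPM. By the gates, the order of levels within d/d was Muc4 and Ptpn22, no subtype marker, glandular, tied, Lrp2 and Slc5a11, and Ltf and Clca3b. Neighbours in that order had overlapping intervals. In d/d, the gated Ltf and Clca3b subset against cells with no subtype marker was at -1.03 on the log2 scale, with an interval from -2.24 to 0.005. Clusters gave another order. The cluster led by Clca3b, with Ltf among its leading genes, had 4 and 43 UMIs, or 23.6 and 204 CPM. That was the highest d/d level of the epithelial clusters, at a log2 ratio of 3.11 (1.65 to 5.05).

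Cycling cells did not stand apart from the other epithelial cells in Pthlh. In cycling cells Pthlh was 11.5 CPM in the control and 143 CPM in d/d (8 and 71 UMIs), and in cells that were not cycling 8.37 and 119 CPM (16 and 35 UMIs). The d/d over f/f log2 ratio was 3.65 (2.59 to 4.91) in cycling cells and 3.82 (2.93 to 4.78) in the rest. Cycling over not cycling was 0.45 in the control (-0.98 to 1.76) and 0.27 in d/d (-0.33 to 0.90), and both intervals included 0.

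The difference was also computed with the make-up held fixed. With the f/f shares of the subsets the d/d level became 108 CPM and the log2 ratio 3.55, against 3.87 as observed, and with the d/d shares the ratio was 4.17. For the cycling split the values were 3.77 and 3.70. Most of the difference in level therefore remained within the subsets as gated. Epithelial clusters, named here by a leading gene, were also uneven. The Slc5a11 cluster held 1370 and 77 cells, at 4.81 and 16.3 CPM. The Syn2 cluster held 809 and 87, at 10.4 and 32.1 CPM. These d/d levels rest on 1 and 2 UMIs. The Knstrn cluster held 170 and 622, at 27.6 and 134 CPM. The Clca3b cluster held 204 and 294, at 23.6 and 204 CPM. The Troap cluster had 3 d/d cells. Cluster shares were not held fixed, so the part of make-up is not settled.

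**Figure D2:**
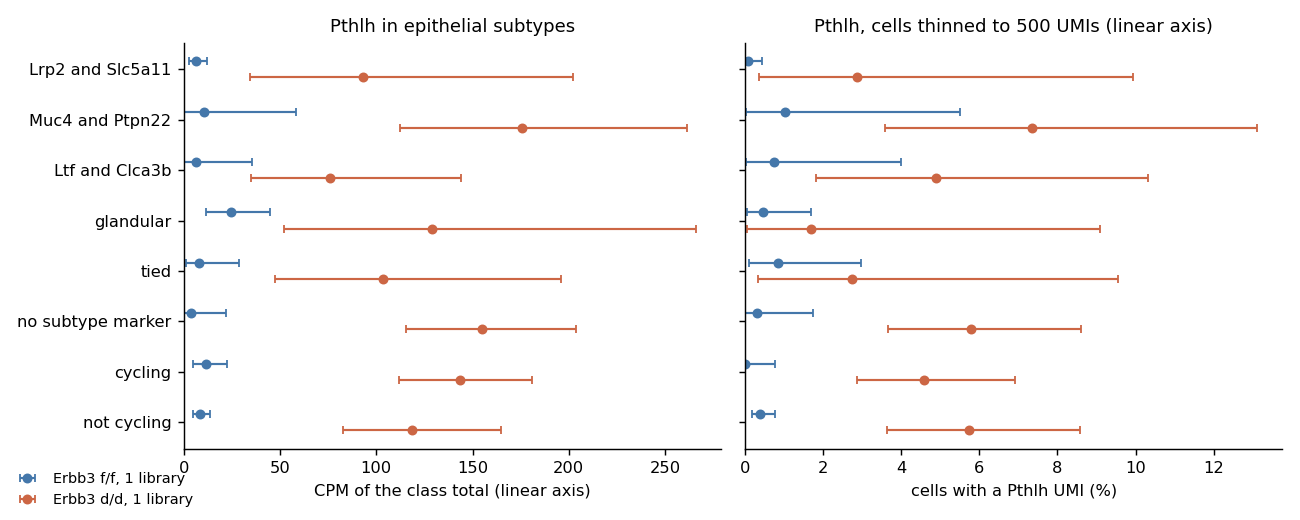
Pthlh in epithelial subsets and by cycling UMIs, as CPM of the subset total (left) and as the percent of cells with a Pthlh UMI after thinning to 500 UMIs (right), both on linear axes, with 95% counting intervals. In every subset the d/d point lies above the f/f point, from 75.8 to 176 CPM in d/d and from 3.88 to 24.2 CPM in the control.

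Pth1r was a stromal gene in both libraries and was lower in d/d. Over all cells it had 1547 UMIs in the control and 251 in d/d. In stromal cells there were 937 UMIs in the control, or 907 CPM (850 to 967), and 118 in d/d, or 586 CPM (485 to 701). The intervals did not overlap, and the log2 ratio was -0.63 (-0.92 to -0.35), with f/f 1.55-fold higher (1.28 to 1.89). Of 3759 genes with at least 100 UMIs in stromal cells, 3.43% were lower in d/d by a log2 ratio of 1 or more, and Pth1r did not reach that size. It held place 457 from the lowest ratio, while the median ratio of all these genes was -0.10. Stromal cells in d/d had a higher median mitochondrial share (2.43% against 1.15% in the control), and among cells with a share of at most 1% the Pth1r ratio was -0.79 (-1.31 to -0.31).

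A Pth1r UMI was seen in 532 of 1099 f/f stromal cells (48.4%) and in 73 of 237 d/d stromal cells (30.8%), at median depths of 729 and 689 UMIs. After thinning the shares were 374 of 1091 (34.3%, 31.5 to 37.2) and 56 of 237 (23.6%, 18.4 to 29.6). The background in epithelial cells was 2.67% in the control and 1.42% in d/d, at median depths of 855 and 809. Most positive cells had few UMIs, with 298 of the f/f cells at 1, and 2 f/f barcodes stood apart at 12 and 21. The d/d cells reached 9. Leaving out the 6 f/f barcodes over 10000 UMIs gave a ratio of -0.64.

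The receptor's stromal level exceeded its level in each other gated class. In f/f it was 27.2-fold the epithelial level (21.8 to 34.3) and in d/d 33.1-fold (18.9 to 62.3). Smooth muscle and pericyte cells came next, with 19 and 5 UMIs, or 249 and 161 CPM, and macrophage and myeloid cells had 15 and 3 UMIs, or 177 and 66.9 CPM. Endothelial cells had 14 and 2 UMIs (103 and 60.4 CPM), mesothelial cells 8 and 1 (94.2 and 39.6 CPM), and epithelial cells 87 and 14 (33.3 and 17.7 CPM). Neighbouring classes in this order overlapped in their intervals below the stroma, in both libraries. In epithelial cells the log2 ratio of d/d over the control was -0.91 (-1.84 to -0.09), on 14 d/d UMIs. Ungated cells, which also held stromal markers at 5188 and 4488 CPM, had 467 and 108 UMIs, or 313 and 184 CPM.

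Part of the receptor signal in other classes lay in the range of other stromal genes there. In epithelial cells Pth1r stood at 3.67% of its stromal level in the control and 3.02% in d/d. The 13 other stromal genes with enough counts in the control had a median of 6.85% there, and 11 of them were above Pth1r. In d/d the median of 11 genes was 4.97%, and 10 were above it. The epithelial counts are thus no higher, relative to the stroma, than those of most stromal genes. In smooth muscle and pericyte cells Pth1r stood at 27.4% and 27.5%, against medians of 34.4% and 20.1%.

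Within the stroma Pth1r was broad rather than limited to a subset. Cells with a UMI of Scube1 and none of Col6a4 or Adam12 had 99 and 7 UMIs, or 1179 and 620 CPM. Cells with Col6a4 or Adam12 and no Scube1 had 318 and 62 UMIs, or 834 and 624 CPM. Cells with both had 925 and 646 CPM, and cells with neither had 909 and 246 CPM, the last from 6 d/d UMIs in 35 cells.

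Scube1 was the gene of the subset that the receptor was said to mark. In f/f, Pth1r in the cells with Scube1 alone was above that in the cells with Col6a4 or Adam12 by a log2 ratio of 0.50 (0.16 to 0.83), and in d/d the ratio was -0.01 (-1.38 to 1.12). All cells with Scube1 against the other stromal cells gave 0.19 in the control (-0.01 to 0.38) and 0.23 in d/d (-0.33 to 0.77), both with intervals that included 0. By clusters made without the pair, the contrast was larger. The stromal cluster with Scube1 among its leading genes had 1093 CPM in the control and 820 in d/d, the one led by Col6a4 had 696 and 561 CPM, and the log2 ratio of the first over the second cluster was 0.65 in the control (0.48 to 0.82) and 0.55 in d/d (0.07 to 1.02). Neither cluster interval included 0. The leading genes of the Col6a4 cluster also included the mitochondrial gene mt-Nd6 and the immunoglobulin genes Igha and Igkc. The part of RNA quality or carried-over RNA in the cluster contrast was not tested. By the gates, the contrast of Scube1 alone with Col6a4 or Adam12 also excluded 0 in the control, but not in d/d.

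Stromal cells were also divided by markers of the inner layer (Aldh1a2, Wnt5a, Ptch1, Gli1 and Igfbp5) and the outer layer. The outer markers were Dpt, Pi16, Clec3b, Cd34, Mfap5, Dpp4 and Vcan. Position in the tissue was not measured. Cells with inner markers alone had 285 and 37 UMIs, or 998 and 648 CPM. Cells with outer markers alone had 108 and 8 UMIs, or 772 and 262 CPM. Inner over outer was a log2 ratio of 0.37 in the control (0.05 to 0.70) and 1.31 in d/d (0.18 to 2.62), so the receptor was higher in inner-marker cells of both libraries, and the d/d value rests on 8 outer UMIs. Within each list, stromal marker levels differed between libraries in both directions. Aldh1a2 was at 192 and 481 CPM and Wnt5a at 279 and 174, while Pi16 was at 98.8 and 263 and Dpt at 214 and 139. Not every marker was highest in stroma, with Dpp4 in control epithelium at 910% of its stromal level.

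Pth1r was lower in d/d in each of these stromal groups except in cycling cells, although for Scube1 alone the interval included 0 (-2.28 to 0.17). In cycling cells it had 63 and 17 UMIs, or 544 and 587 CPM, and the log2 ratio was 0.11 (-0.76 to 0.90). In stromal cells that were not cycling it was 953 and 585 CPM, at a log2 ratio of -0.70 (-1.02 to -0.41). With the subset shares held at those of f/f the stromal ratio was -0.80, and at those of d/d -0.61. The genes that define these subsets also differed in stromal level between the libraries. Col6a4 was at 576 and 2694 CPM, Scube1 at 376 and 595, and Adam12 at 549 and 764. Cells with neither marker were 36.3% of control and 14.8% of d/d stromal cells. The same gate may therefore hold unlike cells in each library, and these ratios do not settle the part of make-up.

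**Figure D3:**
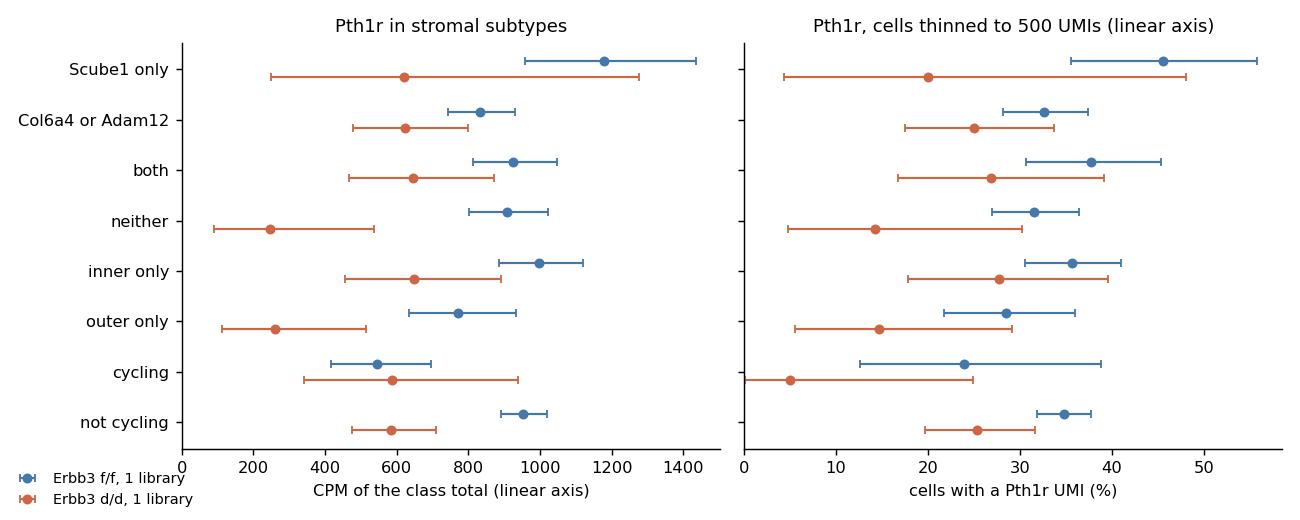
Pth1r in stromal groups as CPM of the group total (left) and as the percent of cells with a Pth1r UMI after thinning to 500 UMIs (right), both on linear axes, with 95% counting intervals. Scube1 only means no UMI of Col6a4 or Adam12; in the control it is the highest point at 1179 CPM, and in d/d cells with neither marker (246 CPM) and with outer markers alone (262 CPM) are lowest.

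Cells with a UMI of both genes were few, as cells with a Pthlh UMI were few. Among 5503 f/f cells, 38 had a Pthlh and 924 a Pth1r UMI, and among 1830 d/d cells, 132 and 166. Both had a UMI in 7 f/f cells, of which 2 were epithelial, 0 stromal and 5 ungated, and in 12 d/d cells, of which 3 were epithelial, 1 stromal and 8 ungated. Most of these cells were ungated, and the counts do not show that the genes avoid each other in single cells. Over 25 groups of cells that do not overlap, defined by library and by class or subset, log2 levels of the pair had a Pearson r of -0.57, given as a description of groups that share 2 libraries.

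The other hormones and receptors of the family were near 0. Pth, which encodes parathyroid hormone, had 2 UMIs in the control and 0 in d/d over all cells used. Pth2, a ligand of the related receptor, had 0 and 1, and Pth2r, that receptor, had 10 and 6. Among the family's genes, Pthlh and Pth1r alone reached 100 UMIs in epithelial or stromal cells.

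Other genes of the pathway were taken from lists of 78 genes, and 77 of these were found by symbol among the genes with probes. Slc9a3r1 was not found, and it was not looked up under another name. In epithelial cells 40 had at least 100 UMIs, of which 2 were higher and 4 lower in d/d by a log2 ratio of 1 or more. That is 6 of 40, where 9.44% of all genes were so called (5.11% higher and 4.34% lower). The median log2 ratio of the 40 was -0.01, against -0.02 for all genes. In stromal cells 24 were counted, with 1 higher and 2 lower, where 4.36% of all genes were so called (0.931% higher and 3.43% lower). Their median was -0.17, against -0.10.

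Among enzymes that process or break down the ligand, the called genes were lower in d/d. Furin, a convertase that cuts the precursor, had 298 and 71 UMIs in epithelial cells, or 114 and 89.8 CPM, and its log2 ratio was -0.35 (-0.74 to 0.03). Mme, which encodes neprilysin, a peptidase at the cell surface, was lower in d/d epithelium, with 1284 and 59 UMIs, or 492 and 74.6 CPM, and its log2 ratio was -2.72 (-3.12 to -2.34). Pcsk5, another convertase, was lower in d/d stroma, with 710 and 52 UMIs, or 687 and 258 CPM, and its log2 ratio was -1.41 (-1.85 to -1.01). Of this list 1 of 4 counted genes in epithelium and 1 of 2 in stroma were called, both lower. Of all genes, 4.34% and 3.43% were called lower in these classes. Pcsk7, a further convertase, was at 0.01 in epithelium (-0.47 to 0.47). Pcsk6, also a convertase, was too low to be counted, with 30 and 47 epithelial UMIs, and it was higher in d/d at 2.37 (1.68 to 3.08).

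Counted partners of the receptor stayed under the call. None of 3 counted in epithelium and none of 4 in stroma reached a log2 ratio of 1, where 9.44% and 4.36% of all genes did. Arrb2 and Grk2 encode an arrestin and a kinase that desensitise such receptors. In stromal cells Arrb2 had 266 and 51 UMIs and its log2 ratio was -0.03 (-0.49 to 0.41), and Grk2 was at -0.08. Ramp3, which encodes a receptor activity-modifying protein, had 94 and 36 UMIs there and was just under the call at 0.97 (0.38 to 1.54). In epithelial cells Arrb2 was at 0.39 and Grk2 at 0.15. Ramp3 was too low to be counted there, with 14 and 13 UMIs, and it was higher in d/d at 1.62 (0.41 to 2.81).

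The G protein and cAMP genes had 1 of 16 counted genes higher and 1 lower in epithelium, and 0 of 7 called in stroma. Of all genes, 9.44% in epithelium and 4.36% in stroma were called. Sik1 encodes a kinase that cAMP signalling restrains. In epithelial cells it had 141 and 94 UMIs, or 54.0 and 119 CPM, and its log2 ratio was 1.14 (0.75 to 1.53). Adcy9, an adenylyl cyclase, had 119 and 15, or 45.6 and 19.0 CPM, and a ratio of -1.26 (-2.15 to -0.48). Gnas, which encodes the Gs subunit to which the receptor couples, had 200 and 33 UMIs in stromal cells and a ratio of -0.24 (-0.82 to 0.29). Gnaq, the Gq subunit, had 156 and 32 and a ratio of 0.07 (-0.52 to 0.63). In epithelial cells Adcy6 was at -0.30 and Gnaq at -0.22.

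Genes that cAMP signalling induces were counted for 3 members in epithelium and 1 in stroma. Sgk1, a kinase gene, had 1810 and 154 UMIs in epithelial cells, or 693 and 195 CPM, and its log2 ratio was -1.83 (-2.08 to -1.59). Junb, an AP-1 factor, had 204 and 27, or 78.1 and 34.1 CPM, and a ratio of -1.19 (-1.83 to -0.61). Per1, a clock gene, was at -0.38 in epithelium and, as the 1 counted member in stroma, at -0.23 (-0.69 to 0.21). Thus 2 of 3 were called lower in the epithelium, where 4.34% of all genes were, and 0 of 1 in the stroma, where 3.43% were. Epithelial members too low to be counted went both ways. Nr4a1 was higher in d/d at 1.72 (0.80 to 2.64), on 22 and 22 UMIs. Rgs2 was lower at -2.25 (-4.57 to -0.61), on 47 and 3, and Areg at -3.08 (-6.16 to -1.16), on 56 and 2.

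Genes tied to the pair in mammary mesenchyme and cartilage had 0 of 8 called in epithelium and 1 of 7 in stroma, where 9.44% and 4.36% of all genes were. The stromal median was -0.70. Lef1, a factor that acts with beta-catenin, had 762 and 57 UMIs in stromal cells, or 738 and 283 CPM, and its log2 ratio was -1.38 (-1.80 to -0.99). Ptch1 and Gli1, which report hedgehog signalling, had 433 and 52 UMIs at a ratio of -0.70 (-1.14 to -0.28), and 379 and 55 UMIs at -0.43 (-0.86 to -0.02). Ihh, the epithelial hedgehog ligand, had 155 and 35 UMIs in epithelial cells and a ratio of -0.42 (-0.996 to 0.11). Among the other counted stromal members, Tnc, a matrix gene, was just under the call at -0.997 (-1.94 to -0.17), and Hdac4, a deacetylase gene, was at -0.93 (-1.92 to -0.07). Msx1, a homeobox gene, was at 0.15 and Bmpr1a, a BMP receptor, at 0.45 in stroma, both with intervals that included 0. In epithelium Msx1 was at -0.05 and Hdac4 at 0.16.

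Calcium-handling genes had 1 of 6 called in epithelium and 1 of 3 in stroma, both higher in d/d. Of all genes, 5.11% in epithelium and 0.931% in stroma were called higher. With 1 gene called per class, no direction is read for the list. Slc8a1, a sodium-calcium exchanger, had 191 and 215 UMIs in epithelial cells, or 73.1 and 272 CPM, and its log2 ratio was 1.89 (1.61 to 2.18), and in stromal cells it was at 0.28 (-0.15 to 0.68). Calb1 had 142 and 60 UMIs in stromal cells, or 137 and 298 CPM, and a ratio of 1.11 (0.65 to 1.56), beside 4257 and 1092 UMIs in epithelial cells, where its ratio was -0.24. Its stromal level was 8.43% of the epithelial level in the control and 21.6% in d/d. The part of carried-over RNA in these stromal counts was not tested. Atp2b2, a calcium pump, was at -0.45 in epithelium.

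**Figure D4:**
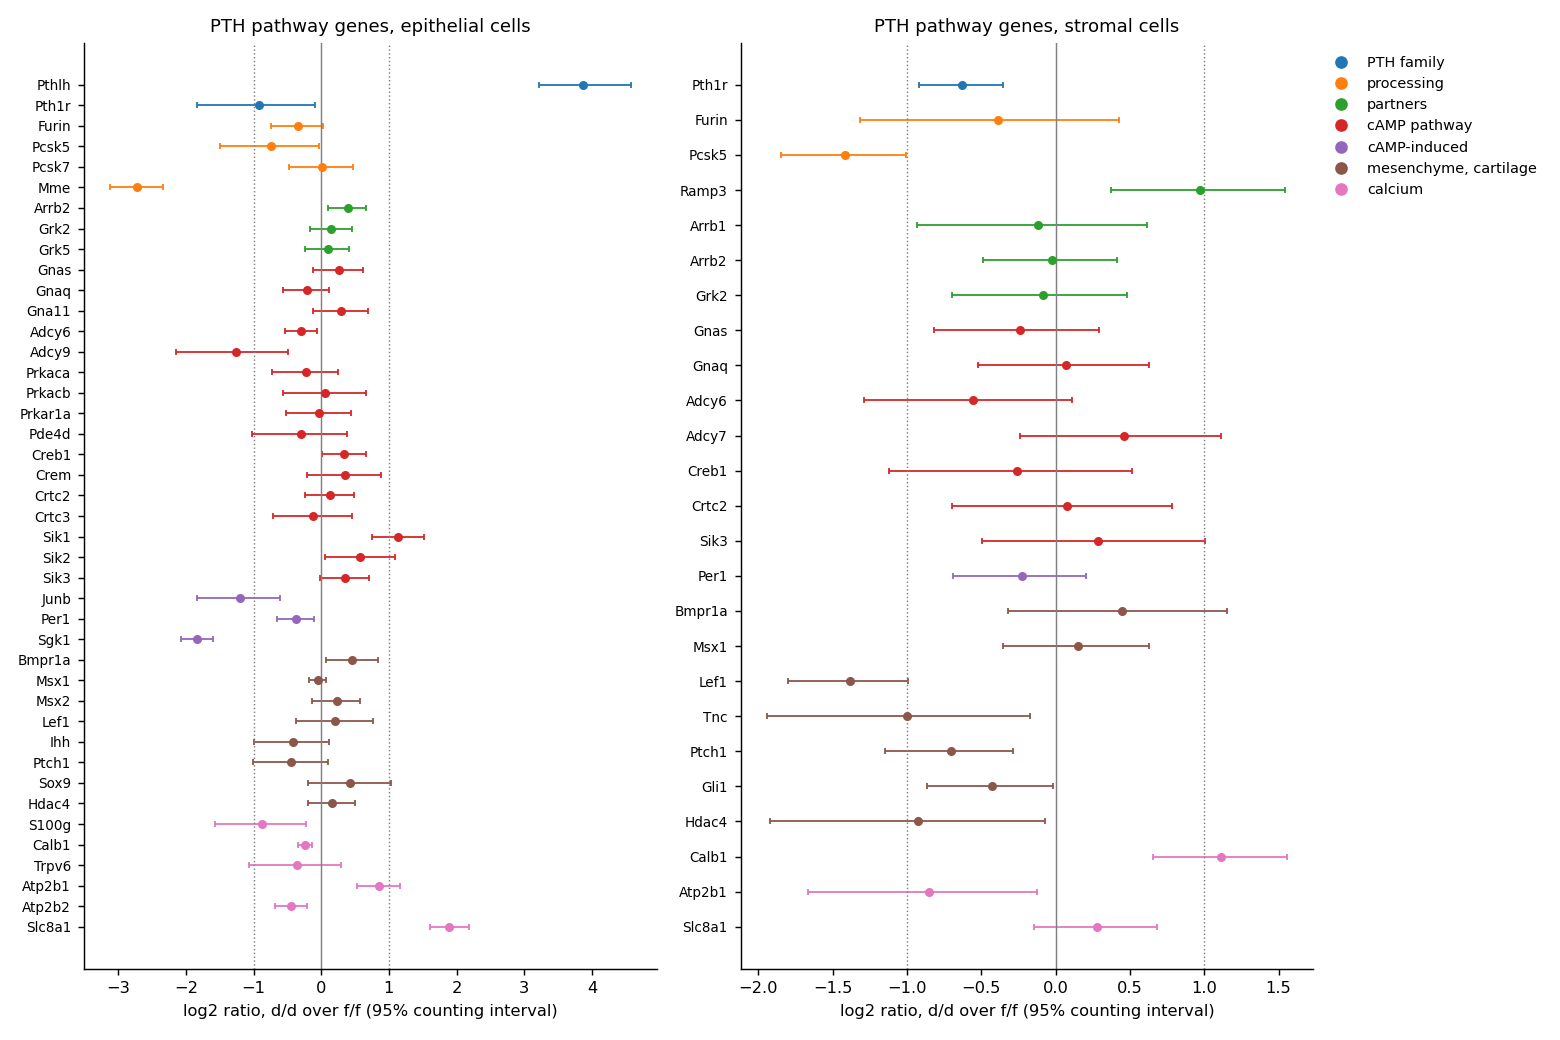
Log2 ratios of d/d over f/f for counted genes of the pathway lists (at least 100 UMIs over both libraries) in epithelial (left) and stromal (right) cells, coloured by list, with 95% counting intervals and dotted lines at the call of 1. Pthlh is at 3.87 in epithelium and Pth1r at -0.63 in stroma, and the 2 panels have different axis ranges.

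Genes with the most similar pattern over the same 25 groups were ranked among 9648 candidates. For Pthlh they were Sirt7 (r 0.83), Tnfrsf19 (0.82), Cenpi (0.79), Haus5 (0.78) and Egfl6 (0.78). Sirt7 encodes a nuclear deacylase, and Tnfrsf19 a receptor of the TNF receptor family. Tnfrsf19 stood at 192 CPM in the control epithelium and 663 in d/d, and at 104 and 189 CPM in stroma. For Pth1r they were Hoxa9 (0.97), Hoxd10 (0.96), Fstl1 (0.95), Zbtb20 (0.95) and Hoxa10 (0.94). Hoxa9, Hoxd10 and Hoxa10 are homeobox factors that pattern the body axis and reproductive tract. Hoxa9 stood at 367 and 233 CPM in stroma and at 16.5 and 13.9 CPM in epithelium, and Hoxd10 at 1140 and 690 CPM in stroma. The groups share libraries and differ in depth, the coefficients describe these 25 points alone, and they say nothing of shared function.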

How the data were processed

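UMI counts per gene and cell barcode were deposited for each library, not normalized, and came from Cell Ranger 9.0.0, per the file headers. The submitters' processing notes list the builds mm10 and GRCm39 without roles, and the aligner is not given in the sources used here. The assay hybridises probe pairs to RNA in fixed cells, and the labels give differing kit names. There were 5783 control (f/f) barcodes with a total of 6819591 UMIs, and 2125 d/d barcodes with 2866862.

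Cells with at least 200 genes and at most 10% mitochondrial UMIs were used, which left 5517795 control and 1712695 d/d UMIs. Cell classes came from summed marker UMIs. Each score was divided by its 99th percentile, and a class needed at least 2 marker UMIs and a score at least 2 times the next. Epithelial subsets took the list with most UMIs, and cycling cells needed 2 UMIs of cycling genes. The members, lists and gates were chosen with earlier results of these data known, and gate thresholds after the data had been seen. Scrublet called 1 f/f and 5 d/d barcodes, too few to show that it worked, so no doublet was removed and leaving out the top 5% of scores was an alternative. As another route, Leiden clusters were made without Pthlh and Pth1r from 2000 variable genes, 30 principal components and 15 neighbours, at resolution 1. This gave 12 clusters, of which 11 could be named.

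UMIs were summed per class and library and expressed as CPM. Sums have exact Poisson, shares exact Clopper-Pearson and ratios exact conditional binomial intervals, all at 95%. With 1 library per genotype no test was run. A gene was called where its log2 ratio was at least 1 in size with at least 100 UMIs. Genes named are the pair, the rest of the PTH family, called list members, members of each list with most UMIs, and the 5 genes most like each of the pair by Pearson r of log2(CPM + 10), over groups of at least 20000 UMIs. Ihh, Gli1, Ramp3, Pcsk6, Pcsk7, Nr4a1, Rgs2, Areg, Tnc, Bmpr1a, S100g and Sox9, and list members given in a class where the rule did not name them, were named after their values were seen. Interval code was tested on simulated data. Tools were Python 3.11.15, scanpy 1.11.5, numpy 2.4.6, scipy 1.17.1, leidenalg 0.10.2 and edgeR 4.0.16, the last for TMM factors alone.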

Additional observations from a re-analysis of the deposited data

Results flagged for a closer look

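Pthlh was also present in barcodes that the cell filter left out, all of them for a mitochondrial share over 10%. In d/d, 295 such barcodes held 56 of the library's 221 Pthlh UMIs, or 48.5 CPM (36.7 to 63.0). In f/f, 280 such barcodes held 6 of 50 UMIs, or 4.61 CPM (1.69 to 10.0). The d/d level was thus above the f/f level in these barcodes too. They come from the same 2 libraries from which the gene was chosen, so this is not independent of that choice. These barcodes had medians of 1599 UMIs in d/d and 2111.5 in f/f, and epithelial markers at 2951 and 3216 CPM. Pth1r stood at 65.0 CPM in the d/d and 88.3 CPM in the f/f barcodes left out.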

How the results depend on the processing

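The Pthlh log2 ratio in epithelial cells kept its direction under 12 alternatives, from 3.56 with all deposited barcodes to 4.24 with cells thinned to 500 UMIs. The Pth1r log2 ratio in stromal cells did so under 12, from -0.80 without cells with a cycling UMI to -0.48 with named clusters, and no interval of either included 0. Alternatives on deep barcodes, on a mitochondrial share of at most 1% and on cycling UMIs were chosen after seeing the data. With a minimum of 20 UMIs, 12 of 56 pathway genes in place of 6 of 40 were called in epithelial cells, where the share of all genes called went from 9.44% to 14.4%. In stromal cells it was 10 of 54 in place of 3 of 24, and the share of all genes went from 4.36% to 13.2%. With Leiden clusters, Pth1r in Scube1 cells over other f/f stromal cells moved from 0.19 to 0.65. There the other cells were the cluster led by Col6a4, and the gates gave 0.50 for Scube1 alone over Col6a4 or Adam12. Pthlh moved in the Lrp2 and Slc5a11 subset from 3.89 to 1.76 and in glandular cells from 2.41 to 1.63. Both of these cluster intervals included 0. No cluster stood for the Muc4 and Ptpn22 subset. With a pseudocount of 1 CPM, 2 of the 5 genes most like Pthlh (Sirt7 and Tnfrsf19) and 2 of the 5 most like Pth1r (Hoxa9 and Fstl1) remained. The causes of these moves were not tested. No paired analysis was possible because each genotype has 1 library. Pthlh counts of 1 to 10 UMIs in the f/f subsets limit every ratio within them.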
